A study of Mus musculus with 16 samples.

Results

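The genes described here are 8 genes of the clotting and plasminogen systems, chosen by name: the receptors F2r and F2rl1, tissue factor (F3), thrombomodulin (Thbd), the plasminogen activators Plau and Plat, the urokinase receptor Plaur and the serpin Serpine2. They were picked with earlier results of these arrays in view, in which F2r had been named for its difference between old and young fresh cells, so the values of F2r in that comparison are given as a description with no test. Where a gene had several probe sets, the one with the highest average across the arrays stood for it. Of the 8 genes, 6 had a probe set under their symbol in the platform annotation used here, out of 17097 genes in all, and these 6 also passed the filter on dim genes that left 14819 genes for testing. F2rl1 and Serpine2 were not analysed here.

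The arrays measured RNA of dermal fibroblasts, the matrix-producing cells of skin, from female C57Bl/6 mice, an inbred laboratory strain without engineered alleles in the labels. There were 4 groups of 4 arrays: cultured cells of old mice (18 months), cultured cells of young mice (2 months), and cells taken straight from old and from young mice (called in vivo, as in the labels). Each mouse gave cells for both conditions, and RNA came from 5000 cells a sample, but which samples come from the same mouse is not in the labels, so samples were treated as independent; how long and in what the cells were grown was not given either. All levels are log2 intensities, so a difference of 1 is a 2-fold difference, and they are compared between arrays and not between genes.

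Clotting starts when tissue factor meets factor VII of the blood, and it ends in the protease thrombin. Thrombin cuts the outer end of F2r, and the new end then acts as the receptor's own ligand; thrombomodulin binds thrombin and turns it towards activating the anticoagulant protein C. Plau (urokinase, held at the cell surface by Plaur) and Plat (tissue plasminogen activator) turn plasminogen into plasmin, the protease that dissolves fibrin, and fibroblasts meet both systems in wounds.

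Of 10 fibroblast markers, 0 averaged below 4.51 in any group, the 95th percentile of the poly-A control probe sets and a guide to background; Pdgfra lay near it, averaging 4.75 in old cultured, 4.63 in young cultured, 5.05 in old in vivo and 4.98 in young in vivo cells, and the other 9 lay well above it. Their summed intensity was 13784 to 15306 in old cultured and 13839 to 15679 in young cultured cells, against 29826 to 33651 in old in vivo and 31176 to 32219 in young in vivo cells. Of these 10 markers 9 were lower in culture at each age. Of all tested genes, 32.5% were lower in old and 38.6% in young mice. In bulk samples, fewer cells of a type and less RNA per cell cannot be told apart. One library stood apart: old in vivo replicate 1 had a summed keratinocyte level of 1480, against 426 to 494 in the other 3 old in vivo and 392 to 505 in the young in vivo arrays, with Krt5 at 9.68 against 5.74 to 6.30. The culture changes in old mice and the age changes in vivo of the 6 measured genes are therefore also given without it. Most other results that involve old in vivo cells, among them those of other genes and the interaction, are given with it. Of 2 control genes with 3' and 5' probe sets, whose difference is a sign of RNA integrity, beta-actin moved with culture: it was 0.10 ± 0.07 in old cultured and 0.07 ± 0.04 in young cultured samples, against -0.46 ± 0.11 in old in vivo and -0.41 ± 0.07 in young in vivo samples (log2, SD, n = 4). Gapdh did not separate the conditions: it was -0.150 ± 0.022 in old cultured and -0.105 ± 0.065 in young cultured samples, against -0.145 ± 0.017 in old in vivo and -0.078 ± 0.035 in young in vivo samples. The part of RNA integrity in the culture results was not tested.

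RefSeq promoter sequences (GRCm38.p6) were at hand for F2r, F3 and Plaur, 3 of the 6 measured genes, and are shown because these genes were higher in culture and their windows share a motif. Each runs 5′ to 3′ over the 250 bases before the annotated start: chr13:95618467-95618716 on the minus strand for F2r, chr3:121723287-121723536 on the plus strand for F3 and chr7:24462233-24462482 on the plus strand for Plaur. Capitals mark matches to TGANTCA, the AP-1 motif, which reads the same on both strands.
F2r: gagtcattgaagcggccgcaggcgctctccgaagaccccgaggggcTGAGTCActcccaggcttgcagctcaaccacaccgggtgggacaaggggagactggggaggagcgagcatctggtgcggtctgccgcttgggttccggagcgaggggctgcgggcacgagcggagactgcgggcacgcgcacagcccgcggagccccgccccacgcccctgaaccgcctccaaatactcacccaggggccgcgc
F3: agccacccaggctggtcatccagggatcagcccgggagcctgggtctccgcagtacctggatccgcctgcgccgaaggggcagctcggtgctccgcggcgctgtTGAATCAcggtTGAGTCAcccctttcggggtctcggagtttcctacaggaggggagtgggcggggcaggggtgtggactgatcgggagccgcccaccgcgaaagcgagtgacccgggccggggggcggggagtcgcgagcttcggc
Plaur: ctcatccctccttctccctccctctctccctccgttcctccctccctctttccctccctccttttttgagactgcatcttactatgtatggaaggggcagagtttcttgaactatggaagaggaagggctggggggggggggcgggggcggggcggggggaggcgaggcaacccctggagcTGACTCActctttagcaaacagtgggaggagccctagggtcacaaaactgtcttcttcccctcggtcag
The match begins 204 bases before the start in F2r and 69 bases before it in Plaur, and F3 has a pair of matches, 146 and 135 bases before it. Over 27025 promoter windows of the same length, 1 per gene, 6.87% held the motif. The Sp1 motif GGGCGG, searched on both strands, was also in all 3 windows and in 32.94% of windows, while TATAAA (12.97% of windows) and the TEAD motif GGAATG (12.63%) were in none of the 3. The motifs were chosen with the results known, and a match is a description of letters.

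Cultured fibroblasts had far more F2r RNA than fresh cells at both ages. The level of F2r was 10.90, 10.86, 10.76 and 10.89 in old cultured cells, against 8.12, 6.78, 7.19 and 7.06 in old in vivo cells. In young mice it was 10.93, 10.96, 10.97 and 10.81 in cultured cells, against 6.20, 6.59, 5.08 and 5.45 in in vivo cells. Every cultured array lay above every in vivo array, and the cultured arrays lay close together while the in vivo arrays were spread. In old mice F2r was 11.8-fold higher in culture (log2 change 3.57 ± 0.28, SE, limma adjusted p = 1.03e-08) and 34-fold higher in young mice (5.09 ± 0.28, limma adjusted p = 1.10e-10). Only 78 of 14819 tested genes had a larger increase in old mice and 13 in young mice. The in vivo arrays used here are those of the age difference for which F2r was picked. These p-values and ranks are therefore not free of that choice, and the larger change in young mice is largely that same difference seen again. Without old in vivo replicate 1 the change in old mice was 3.84.

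The 4 levels of F2r fell in the order young cultured (10.92 ± 0.07, SD, n = 4), old cultured (10.85 ± 0.06), old in vivo (7.29 ± 0.58) and young in vivo (5.83 ± 0.69). The cultured groups overlapped, with a log2 difference between old and young of -0.07 (95% interval -0.21 to 0.08). The in vivo groups did not overlap: the lowest old array was at 6.78 and the highest young array at 6.59, and the old mean was 2.75-fold above the young mean (log2 difference 1.46). This is the difference for which F2r was picked, and 8 of 14819 genes had a larger one in that direction. Without old in vivo replicate 1 it was 1.18, and with each in vivo array left out in turn it was 1.18 to 1.71. The age difference in culture minus that in vivo was -1.52.

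A further probe set of F2r moved the same way. It read 10.5 ± 0.05 in old cultured and 10.7 ± 0.29 in young cultured cells (SD, n = 4), against 5.31 ± 0.43 in old in vivo and 4.65 ± 0.24 in young in vivo cells. Its culture differences were larger, 5.22 in old and 6.02 in young mice, and its age difference in vivo was smaller, 0.66, again with no overlap (4.95 to 5.89 in old, 4.33 to 4.83 in young). The highest old level, 5.89, was that of old in vivo replicate 1, the array with the high keratinocyte markers. Without it the old levels were 4.95 to 5.37, still above the young ones. The young levels lay near the guide to background. By the suffix of their names both F2r probe sets can bind more than 1 transcript. On chromosome 13 F2r lies between F2rl1 and Iqgap2, and F2rl2, a receptor of the same family, lies on the other side of Iqgap2. F2rl2 lay near background in all groups (3.67 to 4.16), with culture changes of -0.20 in old and -0.21 in young mice that passed the threshold (limma adjusted p = 0.0312 and 0.0201), and F2rl3 was not tested.

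**Figure D1:**
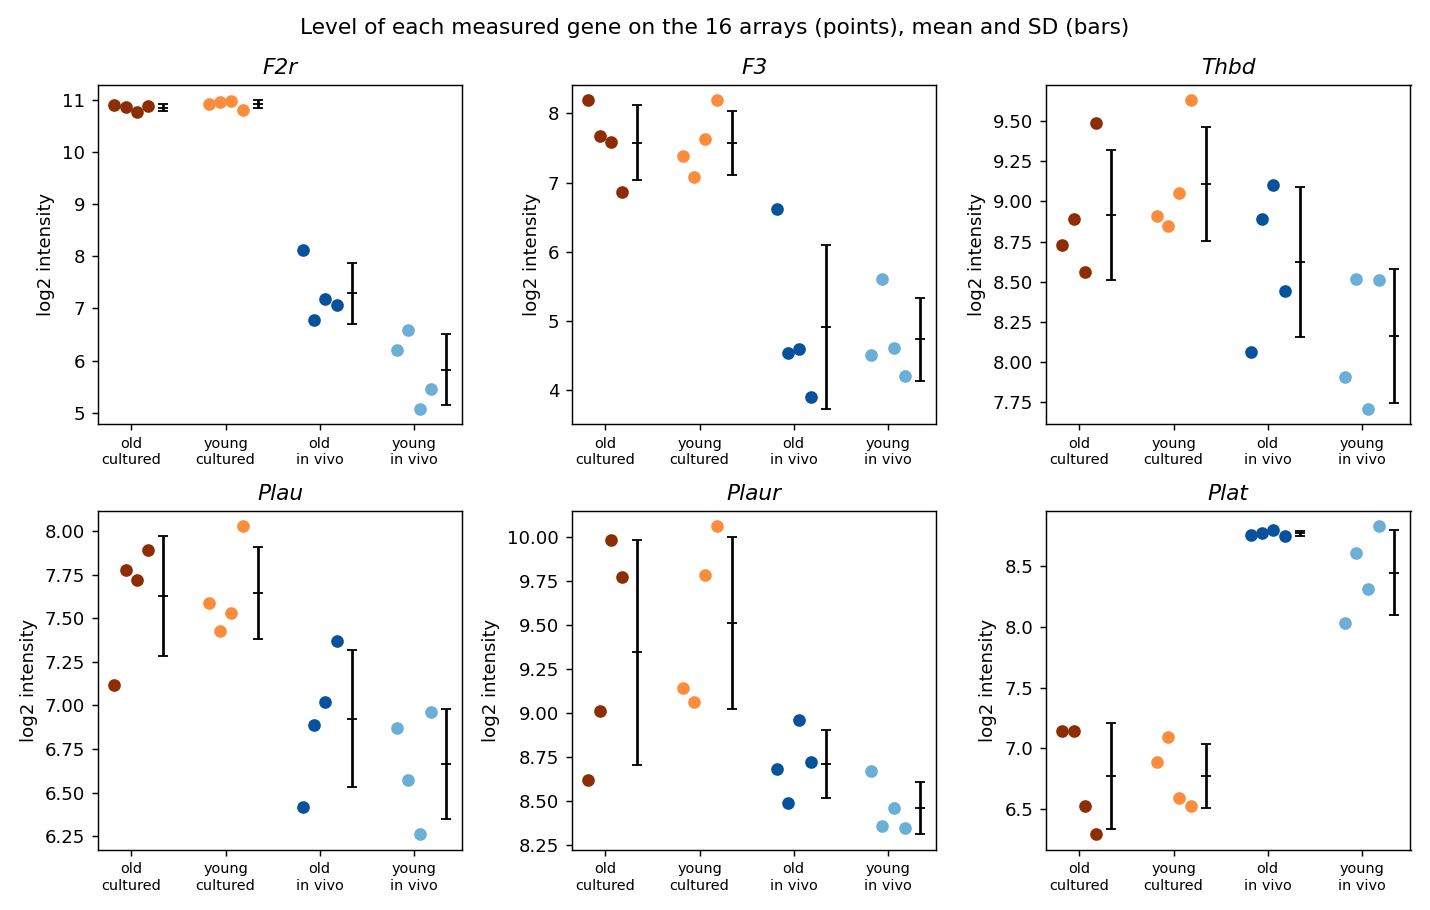
Log2 intensity (vertical axes) of the 6 measured genes on each of the 16 arrays (points), by group, with the mean and SD of 4 arrays beside them. All cultured arrays lie above all in vivo arrays for F2r and F3 and below them for Plat, while Thbd, Plau and Plaur overlap between the conditions.

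F3, the trigger of clotting, was also clearly higher in cultured cells. Its level was 8.19, 7.68, 7.59 and 6.86 in old cultured cells, against 6.62, 4.54, 4.59 and 3.90 in old in vivo cells. It was 7.39, 7.08, 7.63 and 8.19 in young cultured cells, against 4.51, 5.60, 4.61 and 4.21 in young in vivo cells. No cultured array overlapped an in vivo array of its age. The increase was 6.35-fold in old mice (log2 change 2.67 ± 0.46, limma adjusted p = 9.04e-05) and 7.16-fold in young mice (2.84 ± 0.46, limma adjusted p = 4.20e-05), and 3.24 on the log2 scale in old mice without old in vivo replicate 1. Several in vivo arrays lay near background, so these folds may understate the change, which was not tested.

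The highest in vivo level of F3 and that of F2r, 6.62 and 8.12, were both on old in vivo replicate 1, the array with the high keratinocyte markers. F3 is known from the epidermis. The F3 difference between old and young in vivo cells was 0.18 with that array (95% interval -0.94 to 1.30) and -0.39 without it, and passed the threshold in neither case. For F2r the 3 other old arrays lay between 6.78 and 7.19, still above all young arrays. Young in vivo replicate 2 had the next highest F3 level, 5.60, with a summed keratinocyte level of 392, the lowest of the 8 in vivo arrays. These are values of single arrays, and the part of keratinocytes in the F3 and F2r levels was not tested.

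**Figure D2:**
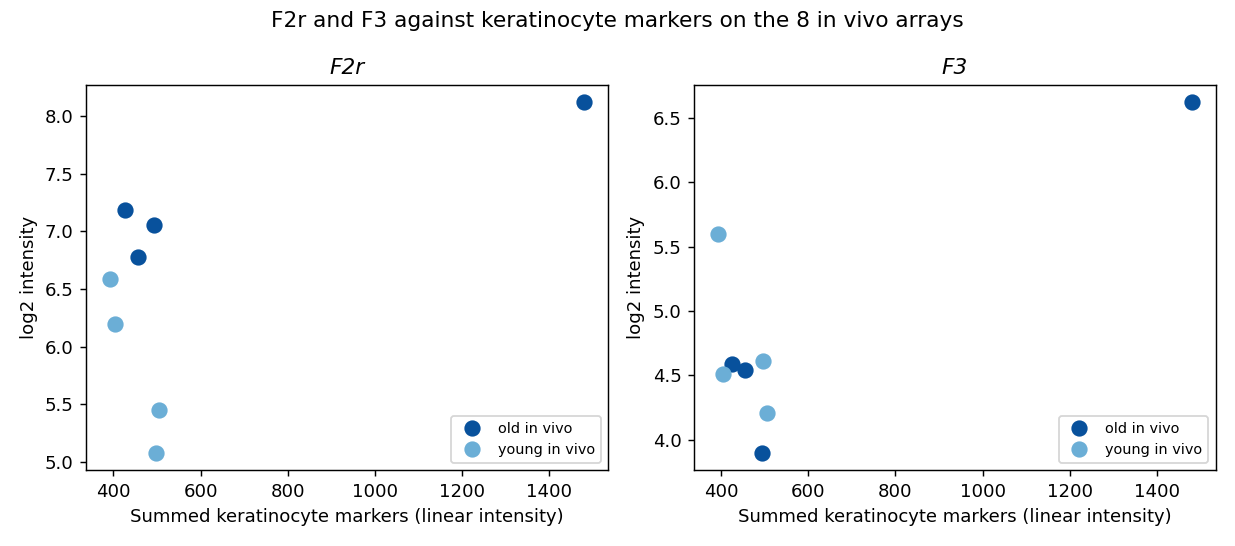
Log2 intensity of F2r (left) and F3 (right) on the 8 in vivo arrays against the summed linear intensity of 10 keratinocyte markers. Old in vivo replicate 1 lies alone at 1480; the other 7 arrays lie between 392 and 505, and among them the 3 old arrays are above the 4 young arrays for F2r and intermixed with them for F3.

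Thbd, which turns thrombin towards the anticoagulant pathway, rose in culture in young cells. Its level was 8.91, 8.85, 9.05 and 9.63 in young cultured cells, against 7.91, 8.52, 7.71 and 8.51 in young in vivo cells, without overlap. That is a 1.93-fold increase (log2 change 0.95 ± 0.26, limma adjusted p = 0.00371), which after cyclic loess scaling was 0.59 and missed the threshold (limma adjusted p = 0.0526). In old mice the level was 8.73, 8.89, 8.56 and 9.49 in cultured cells, against 8.06, 8.89, 9.10 and 8.44 in in vivo cells. These groups overlapped, and the difference of 0.30 (95% interval -0.25 to 0.84) did not pass the threshold (limma adjusted p = 0.321). The culture changes of old and young mice were not shown to differ (old minus young -0.65 ± 0.36, limma adjusted p = 0.495).

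The members of the plasminogen system went both ways. The protease Plau was higher in culture: 7.12, 7.78, 7.72 and 7.89 in old cultured cells, against 6.42, 6.89, 7.02 and 7.37 in old in vivo cells. In young mice it was 7.59, 7.43, 7.53 and 8.03 in cultured cells, against 6.87, 6.57, 6.26 and 6.96 in in vivo cells. The old groups overlapped and the young groups did not. The increase was 1.63-fold in old (log2 change 0.70 ± 0.21, limma adjusted p = 0.00833) and 1.97-fold in young mice (0.98 ± 0.21, limma adjusted p = 6.06e-04). A further, dimmer Plau probe set differed by 0.50 and 0.71 in the same direction.

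Plaur, the receptor that holds Plau at the cell surface, was 8.62, 9.01, 9.98 and 9.77 in old cultured cells, against 8.68, 8.49, 8.96 and 8.72 in old in vivo cells. In young mice it was 9.14, 9.06, 9.78 and 10.06 in cultured cells, against 8.67, 8.36, 8.46 and 8.35 in in vivo cells. The young groups did not overlap, and the increase was 2.07-fold (log2 change 1.05 ± 0.26, limma adjusted p = 0.00200). The old groups overlapped; the increase of 1.55-fold (0.63 ± 0.26) was just past the threshold (limma adjusted p = 0.0441). It missed the threshold in 10 of 15 other settings, with limma adjusted p-values from 0.00527 to 0.265, among them those without old in vivo replicates 1 (0.0742), 2 (0.105) and 4 (0.0701) and without old cultured replicates 3 (0.160) and 4 (0.131). Old cultured replicate 1, at 8.62, lay below 3 of the old in vivo arrays.

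Plat, the activator best known from blood vessel walls, was the member that fell. Its level was 7.14, 7.14, 6.52 and 6.29 in old cultured cells, against 8.76, 8.77, 8.80 and 8.75 in old in vivo cells. In young mice it was 6.89, 7.09, 6.59 and 6.52 in cultured cells, against 8.03, 8.61, 8.31 and 8.83 in in vivo cells. The groups did not overlap at either age. Plat was 3.99-fold lower in cultured cells of old mice (log2 change -1.998 ± 0.196, limma adjusted p = 1.55e-07) and 3.19-fold lower in those of young mice (-1.67 ± 0.20, limma adjusted p = 1.09e-06). The further Plat probe set differed by -1.70 and -1.52, with cultured arrays at 3.50 to 3.67, within the range of the controls. Without old in vivo replicate 1, the culture changes in old mice were 0.11 for Thbd, 0.53 for Plau (limma adjusted p = 0.0334), 0.62 for Plaur and -2.001 for Plat.

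Endothelial cells are a known source of Plat and Thbd, so their markers were looked at as well. Of 12 endothelial markers 6 were lower and none higher in culture at each age. Of all tested genes, 32.5% were lower and 62.8% called in either direction in old mice. In young mice these shares were 38.6% and 71.2%. Their summed intensity was 273 to 472 in old cultured and 349 to 436 in young cultured cells, against 636 to 1049 in old in vivo and 549 to 673 in young in vivo cells. Kdr and Tek carried much of the difference. Of the 12, 9 averaged below 4.51 in old cultured, 8 in young cultured, 6 in old in vivo and 5 in young in vivo cells. Pecam1, Vwf, Cldn5, Emcn and Tie1 were below it in all 4 groups, Cdh5 was at 4.48 to 4.73, Plvap was above it in vivo alone (4.59 in old, 4.82 in young), and Egfl7 and Eng were above it in all groups. Macrophage markers were of interest because macrophages make Plau and Plaur. In culture 5 of 8 tested were lower in old and 6 of 8 in young mice, and none higher, beside the same shares of all genes. The summed intensity of the macrophage markers was 286 to 313 in old cultured and 278 to 343 in young cultured cells, against 508 to 666 in old in vivo and 504 to 835 in young in vivo cells. Ptprc, Itgam, Adgre1 and C1qa averaged below 4.51 in every group. Cd68 was well above it, at 5.52 in old cultured and 5.498 in young cultured cells, against 8.10 in old in vivo and 8.09 in young in vivo cells, and so was Csf1r, at 6.50 and 6.63 in cultured, against 6.46 and 7.53 in in vivo cells. The part of other cells in the member values was not tested.

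Over the 6 measured members, 5 were called in culture in old mice (4 higher, 1 lower) and 6 in young mice (5 higher, 1 lower). At the same threshold 62.8% of all tested genes were called in old mice (30.2% higher, 32.5% lower) and 71.2% in young mice (32.6% higher, 38.6% lower), so being called in culture was common to most genes. Groups did not overlap for 3 of 6 members in old mice (2 higher, 1 lower), against 58% of all genes (27.6% higher, 30.5% lower). In young mice they did not overlap for 6 of 6 members (5 higher, 1 lower), against 63.6% of all genes (30.6% higher, 33% lower). The median change of the members was 0.67 in old and 1.02 in young mice, and that of all genes -0.10 and -0.12 (log2).

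**Figure D3:**
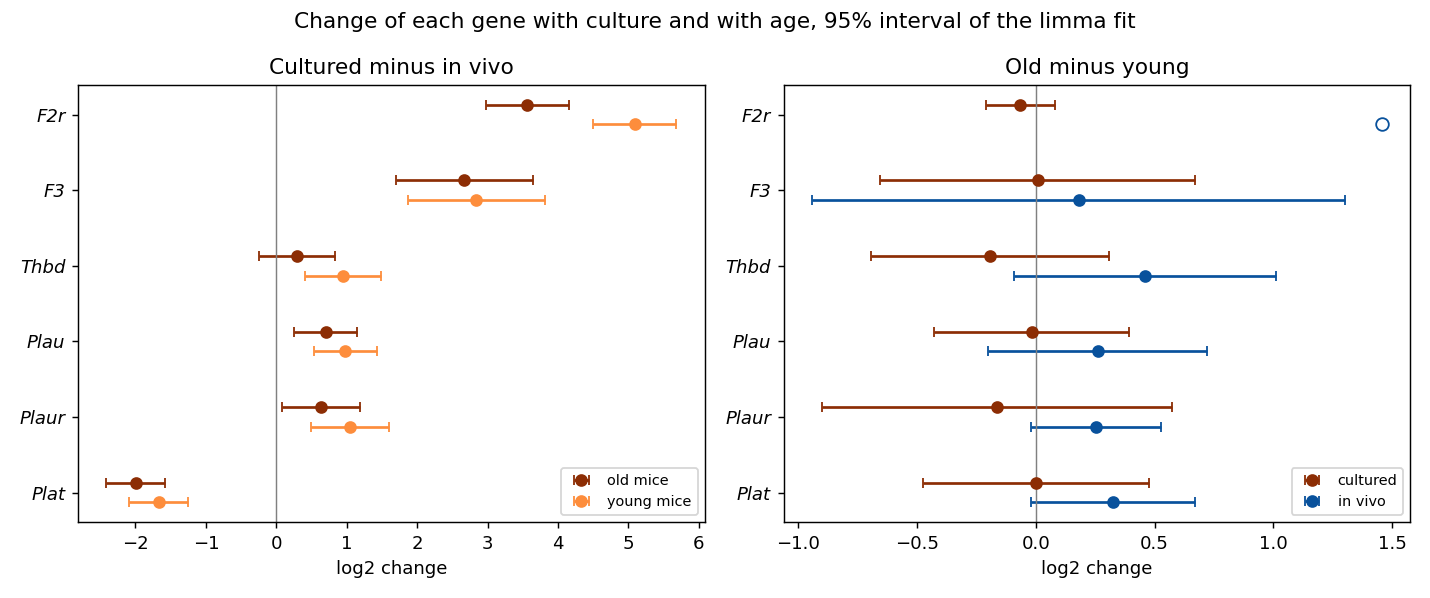
Log2 change of each measured member with culture (left, cultured minus in vivo) and with age (right, old minus young), with the 95% interval of the fit as bars. F2r and F3 have the largest increases of the 6 in culture and Plat lies below 0 at both ages; the open circle is F2r in vivo, drawn without an interval because F2r was picked for that value.

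None of the 5 members tested between old and young fresh cells, which leave out F2r, was called. The log2 differences were 0.46 for Thbd (95% interval -0.09 to 1.01), 0.33 for Plat (-0.02 to 0.67), 0.26 for Plau (-0.20 to 0.72), 0.25 for Plaur (-0.02 to 0.53) and 0.18 for F3. Their adjusted p-values in the limma fit were 0.367 to 0.907, and the old and young arrays overlapped for all 5. Without old in vivo replicate 1 the differences were 0.65 for Thbd, 0.33 for Plat, 0.43 for Plau and 0.26 for Plaur, and none passed. Over all genes, 1.35% were called in this comparison (0.911% higher, 0.439% lower) and 8.53% did not overlap (5.8% higher, 2.73% lower). All 4 old in vivo levels of Plat, 8.75 to 8.80, lay within the span of the young levels, 8.03 to 8.83. Beside the F2r difference, 1 of 10 fibroblast markers and 1 of 8 tested macrophage markers (Csf1r) were lower in old in vivo cells. Of 6 pericyte and smooth muscle markers, 1 (Kcnj8) was higher. The Kcnj8 call, at a limma adjusted p of 0.0494, missed the threshold in 9 of 15 other settings (0.00497 to 0.133 over the 15). The summed level of the 6 pericyte and smooth muscle markers was 343 to 583 in old in vivo and 276 to 339 in young in vivo cells, without overlap, with 1 of the 6 averaging below 4.51 in each group. Without Kcnj8, the sum of the other 5 was 140 to 167 in old in vivo and 153 to 170 in young in vivo cells, and overlapped. The part of these markers in the F2r difference was not tested.

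In culture none of the 6 members was called between old and young cells. The log2 differences ran from -0.19 for Thbd (95% interval -0.69 to 0.31) to 0.01 for F3 (-0.66 to 0.67), and all groups overlapped. The limma fit called 0% of all genes here (0 of 14819; 533 had an unadjusted p under 0.05, and the fit with all 16 arrays also called 0), and 2.06% did not overlap (1.19% higher, 0.864% lower). In the interaction, which asks whether the age difference changes with culture, the 5 members tested had limma adjusted p-values of 0.495 to 0.939, and 0.587% of all genes were called (0.196% higher, 0.391% lower).

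Among cultured cells Plaur and Plat split the arrays of each age. Plaur was at 9.77 to 10.06 on 4 arrays (old cultured replicates 3 and 4, young cultured replicates 3 and 4) and at 8.62 to 9.14 on the other 4. Plat was at 6.29 to 6.59 on the 4 arrays with high Plaur and at 6.89 to 7.14 on the others, so the 4 arrays that were high in one gene were low in the other. The same 4 arrays lay at 9.85 to 15.8 on the first principal component of the cultured arrays, computed from all tested genes but the members, and the other 4 at -24.2 to -6.95; this component held 40.3% of the variance. Thbd, Plau, F3 and F2r did not separate these 4 arrays from the others. The split follows the order in which the samples are listed: the 4 arrays with high Plaur are the last 4 cultured arrays, and the other 4 come before them. What this order stands for is not in the labels. According to the labels, old and young mice were killed in equal numbers on each day, but the day of each array is not given. Day, order of handling and this split could therefore not be told apart.

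**Figure D4:**
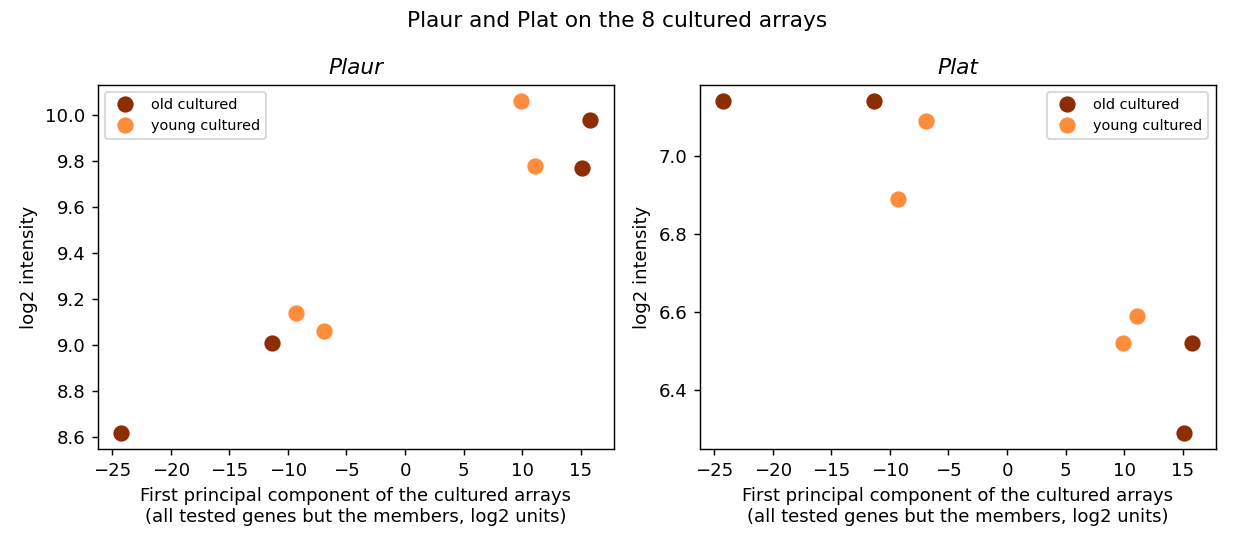
Log2 intensity of Plaur (left) and Plat (right) on the 8 cultured arrays against the first principal component of these arrays. The 4 arrays to the right of 0, with 2 of each age, have Plaur at 9.77 or above and Plat at 6.59 or below.

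The genes whose level followed each member most closely over the 16 arrays were named by Pearson's r, as a description, since all arrays share the difference between culture and fresh cells. For F2r they were Arpp19 (r = 0.992) and Pvt1 (0.991), and over the 8 in vivo arrays Pvt1 (0.983), Mrpl2 (0.958) and Ankrd11 (0.955). For F3 they were Marcksl1 (0.956) and Cited2 (0.952), for Thbd Lpcat1 (0.841) and Atg16l1 (0.828), and for Plau Fbxo25 (0.946) and C1galt1c1 (0.942). For Plaur they were Smad7 (0.976), an inhibitor of TGF-beta signalling, and Tnfrsf12a (0.942), and for Plat Ip6k1 (0.984) and Ap3m2 (0.982). Thbd thus had the loosest companions of the 6 members.

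Of 13 other tested genes on a broad list around the plasminogen system, 8 were lower and 1 higher in culture in old mice. In young mice 10 were lower and 1 higher. Over all tested genes, 32.5% were lower in old and 38.6% in young mice. The gene that rose was Klk8, a secreted protease of the kallikrein family, by 3.73 ± 0.39 in old and 4.11 ± 0.39 in young mice (limma adjusted p = 3.65e-07 and 9.30e-08). Among those that fell, Lrp1, the endocytic receptor that clears protease and inhibitor complexes, changed by -1.14 ± 0.08 in old and -1.04 ± 0.08 in young mice. Stab2, a scavenger receptor, changed by -0.83 ± 0.10 and -1.28 ± 0.10. S100a10, which with annexin A2 binds plasminogen at the cell surface, changed by -0.68 ± 0.09 in old mice, and Vtn, the adhesive protein vitronectin, by -0.79 ± 0.11 in young mice. The median change of the list was -0.32 in old and -0.46 in young mice, against -0.10 and -0.12 over all genes. Plg, A2m and Serpinf2, which were called lower, averaged below the guide to background in every group. Hgfac, called lower in young mice, lay near it (group means 4.29 to 4.61).

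Of 8 tested genes on the anticoagulant list, which includes Gas6 as a relative of Pros1, 1 was higher and 5 lower in old mice. In young mice 2 were higher and 5 lower (medians -0.36 in old and -0.33 in young mice). Of all genes 62.8% were called in old mice (30.2% higher, 32.5% lower) and 71.2% in young mice (32.6% higher, 38.6% lower). After cyclic loess scaling the young count was 4 (2 higher, 2 lower). Among the genes called lower at either age, Serpinc1 averaged below the guide to background in every group. Proc (group means 4.42 to 4.75) and Serpind1 (4.57 to 4.99) lay near it. Tfpi2, an inhibitor of tissue factor with factor VII and of plasmin, rose by 2.23 ± 0.24 in old and 2.04 ± 0.24 in young mice. Pros1, the protein C cofactor protein S, changed by -1.94 ± 0.12 and -2.06 ± 0.12, and its relative Gas6, a ligand of Axl-type receptors, by -2.27 ± 0.16 and -2.01 ± 0.16 on the log2 scale. All of these had limma adjusted p-values of 1.26e-06 or lower.

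Tfpi, the main inhibitor of tissue factor, had its lowest level in young in vivo cells. It was 8.76, 9.37, 9.25 and 8.19 in old cultured cells, 9.10, 8.40, 9.16 and 9.38 in young cultured cells, 8.27, 9.12, 8.72 and 9.11 in old in vivo cells, and 7.94, 7.95, 7.78 and 8.06 in young in vivo cells. All old in vivo arrays lay above all young in vivo arrays, and the young cultured arrays did too. Between old and young in vivo cells the log2 change was 0.87 ± 0.18 (limma adjusted p = 0.0468), and 1.05 without old in vivo replicate 1 (limma adjusted p = 0.00435). The call missed the threshold in 8 of 15 other settings, with limma adjusted p-values from 0.00435 to 0.122, among them those without each other in vivo array (0.0792 to 0.122). Of the 4 Tfpi probe sets, 3 had old in vivo arrays that all lay above the young ones. In young mice Tfpi rose in culture by 1.08 ± 0.25 (limma adjusted p = 0.00117), and in old mice the change of 0.09 ± 0.25 did not pass (limma adjusted p = 0.768). That change depends on the probe set: it was 0.885, 1.86 and 0.23 on the other 3, and with the mean over all 4 it was 0.77 and passed (limma adjusted p = 0.00692). The culture changes of Tfpi in old and young mice were not shown to differ. Their interaction was not called, with limma adjusted p-values from 0.1 to 0.401 over 23 other settings.

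Of 11 tested coagulation factor genes, none was higher in culture, 2 were lower in old and 5 in young mice (medians -0.14 and -0.21). The large change was that of F13a1, the factor that cross-links fibrin, at -1.66 ± 0.53 in old (limma adjusted p = 0.0125) and -2.89 ± 0.53 in young mice (limma adjusted p = 1.44e-04); the other called genes changed by less than 0.5. Over all tested genes 32.5% were lower in old and 38.6% in young mice. The share of the 11 genes was below this in old and above it in young mice. Most of these genes were dim. F5, F7, F11, Vwf, Klkb1, Kng1 and Fgg averaged below the guide to background in every group, and F12 lay near it. F13a1 averaged below it in cultured cells alone, while F10 and Fgb averaged above it in every group. The counts were unstable. With a stricter filter on dim genes 4 were tested, of which 1 was lower in old and 4 in young mice. After scaling to the 75th percentile 11 of 12 tested were lower in old and 12 of 12 in young mice. The young count was 2 without young in vivo replicate 3, young cultured replicate 1 or young cultured replicate 2. Of 16 tested genes that carry signals from thrombin receptors, 3 were higher and 6 lower in old mice. In young mice 4 were higher and 6 lower (medians -0.04 in old and -0.01 in young mice). Counted in either direction, these shares were below those of all genes (62.8% called in old and 71.2% in young mice). The share of lower calls in old mice was above that of all genes. Grk5, a kinase that switches off activated receptors, rose by 0.98 ± 0.12 in old and 1.10 ± 0.12 in young mice. Arrb1, an arrestin that binds such receptors, changed by -1.46 ± 0.14 and -1.47 ± 0.14, and Plcb1, a phospholipase downstream of them, by -0.995 ± 0.139 and -0.865 ± 0.139. The immediate early genes, which include the AP-1 subunits Fos and Jun, were lower in culture for 11 of 11 at both ages (medians -2.04 in old and -2.02 in young mice); their part in the member values was not tested.

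**Figure D5:**
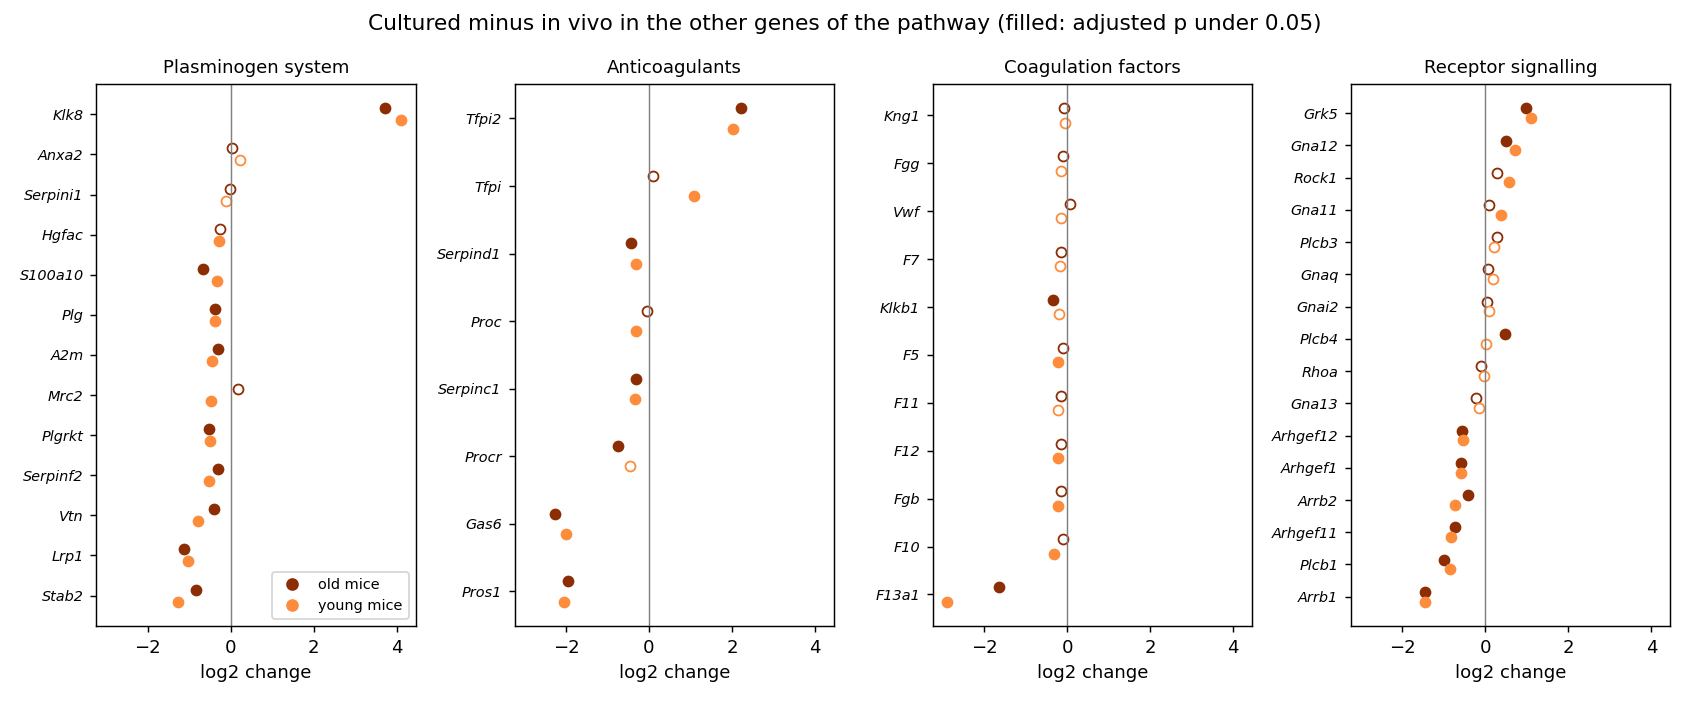
Log2 change with culture (cultured minus in vivo) in old and young mice for the tested genes of 4 pathway lists; filled points passed an adjusted p of 0.05. Klk8 and Tfpi2 lie farthest to the right and F13a1, Pros1 and Gas6 farthest to the left.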

How the data were processed

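The deposited table holds log2 intensities of 45141 probe sets on 16 arrays; per the submitters' processing notes the authors used RMA and affy (no versions), and the range of the values gave the log base. RMA subtracts background and equalises the arrays, so changes are relative to the other genes, and changes of dim genes may be understated. Probe sets with 1 symbol (28898) were used, each gene through the probe set of highest average. A gene was tested if at least 4 arrays lay above 3.87, the 25th percentile of all values.

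Group means were fitted with limma 3.58.1 (R 4.3.3; lmFit, eBayes), with two-sided p-values adjusted by Benjamini-Hochberg over all 14819 genes and a threshold of 0.05. The culture comparisons and the interaction used all 16 arrays; each age comparison used its own 8, since the median residual SD was 0.185 in vivo and 0.129 in culture. Errors are standard errors unless an SD is named. The number of arrays limits the precision. On simulated data for age in vivo (14819 genes), 80% of changes of 1 and 28% of changes of 0.5 were recovered, and 6.09% of calls were false. For age in culture these shares were 90%, 54% and 3.36%. The simulated noise was drawn independently for each gene, without the variation that genes share across real arrays. These shares may therefore not hold for the real data.

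Members and lists were chosen with earlier results of these data known. The text names the members, up to 4 genes a list with the largest called change, the closest 2 genes by correlation (3 for F2r in vivo), and, chosen after their values were seen, Tfpi in the age comparison and the marker genes beside it. Replicate numbers follow accession order. Samples of a group came from separate mice per the labels, which give no pairing. Alternatives were another scaling, the mean over probe sets, other filters, other arrays in the fit, moderated variances with a trend, and each array left out. No pair of arrays was identical (0 pairs).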

Additional observations from a re-analysis of the deposited data

How the results depend on the processing

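No paired analysis was possible because the mouse and the day of each sample are not in the labels. Of 986 recalculated log2 changes of named genes, 935 were rated as unchanged, which meant the same direction and side of the threshold, with these exceptions. F2r for age in vivo and in the interaction was judged by direction and size, without a threshold. Plat for age in culture, at 0 in the main fit, was judged by the threshold alone and ranged from -0.12 to 0.16. The number of members called stayed at 5 or 6 in young and 4 or 5 in old mice for culture, and at 0 for both age comparisons and the interaction, in all settings run. Over all genes, 200 were called for age in vivo, against 900 with all 16 arrays in the fit and 54 to 304 with an array left out, and 87 for the interaction, against 44 to 199. Scaling to the 75th percentile moved the median culture change of all genes to -0.26 in old and -0.36 in young mice, and the share of calls that were higher to 33.3% from 48.1% in old and to 30.5% from 45.8% in young mice. For age in vivo that share was 67.5%, against 43.7% after this scaling and 51.5% after cyclic loess; for the interaction it was 33.3%, against 55.8% and 45.2%. The changes that turned sign were small ones, called in no setting apart from the culture change of Tfpi in old mice. F3 ranged from -0.39 to 0.52 for age in vivo, from -0.20 to 0.25 for age in culture and from -0.51 to 0.40 for the interaction with an array left out, and was -0.012 for age in culture after cyclic loess. For age in culture Plau ranged from -0.11 to 0.15, Plaur from -0.38 to 0.0767 and Tfpi from -0.32 to 0.12. The culture change of Tfpi in old mice, 0.09, was -0.07 after scaling to the 75th percentile, -0.17 after cyclic loess and -0.0908 to 0.32 with an array left out, and passed with the mean over its probe sets (0.77, limma adjusted p = 0.00692). The interaction of F2r was -1.16 with the mean over its probe sets. Coagulation factor calls in young mice were 5 of 11 tested, against 2 of 11 after cyclic loess, 3 of 11 with the 2 groups alone in the fit, 8 of 16 without the filter and 12 of 12 after scaling to the 75th percentile; anticoagulant calls were 7 of 8, against 4 of 8 after cyclic loess. The causes were not tested.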

Other observations

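F13a1, which macrophages as well as fibroblast-like cells of skin can make, split the young in vivo arrays. It was at 5.55, 5.08, 4.51 and 5.54 in old in vivo cells, against 7.90, 7.90, 5.11 and 4.95 in young in vivo cells. The age difference of -1.30 ± 0.66 did not pass the threshold (limma adjusted p = 0.398). The 2 young in vivo arrays with F13a1 at 7.90 also had the higher F2r levels of that group, 6.20 and 6.59, against 5.08 and 5.45 on the other 2. They also had the higher macrophage markers, with a summed level of 795 and 835 against 590 and 504, and Cd68 at 8.60 and 8.88 against 7.72 and 7.16; the part of macrophages in these values was not tested.

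Chosen after their values were seen, 2 further genes singled out 1 cultured array. Klk8 was at 7.46 on old cultured replicate 1, against 9.66 to 10.02 on the other 3 old cultured arrays and 9.49 to 9.85 on the young cultured arrays. The same array had the lowest Plaur (8.62) and the lowest Plau (7.12) of the 8 cultured arrays. The protein C receptor gene Procr was also lowest there, at 5.64, against 6.51 to 7.41 on the other 7.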
